A study of Mus musculus with 6 samples.

Results

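The regions described here are the ZBTB21 peaks of mouse embryonic stem cells (mESCs) at which ATAC-seq of untreated mESCs lists no peak. They were chosen by position alone: of the 1827 ZBTB21 ChIP-seq peaks, 1026 (56.2%, Wilson 95% interval 53.9 to 58.4%) shared no base with any of the 41014 peaks of the ATAC-seq list, and 801 shared at least 1 bp. ATAC-seq uses the Tn5 transposase to cut and tag accessible DNA, so a listed peak marks a stretch that was cut often. The absence of a listed peak is not a measurement of closed chromatin, since the list gives no value between its peaks.

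The series holds 6 ATAC-seq samples in 3 conditions of 2 samples each. Only the untreated condition was used, namely V6.5 mESCs, kept with fetal bovine serum and LIF over irradiated fibroblast feeders, and its list pools both samples. The culture given in the methods also holds inhibitors of GSK3 and MEK, which the labels do not name. ZBTB21-degron mESCs without IAA (0 h) and after 6 h of IAA, the auxin that triggers loss of the tagged protein, were not analysed here. The treatment text shared by all the labels, that of the untreated samples included, describes degron cells given doxycycline. ZBTB21 peaks came from engineered mESCs, not from the untreated cells of the ATAC-seq, and their ZBTB21 alleles both carry a degron and GFP at the C terminus, with ChIP by an antibody to GFP. A difference between the cells and a difference between the assays therefore cannot be told apart here.

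ZBTB21 belongs to the ZBTB family, whose members pair a BTB domain, used to bind other proteins, with zinc fingers that read DNA. Many of them act as transcriptional repressors. Active promoters are as a rule free of nucleosomes just upstream of the TSS and are cut well by Tn5, and most mouse promoters of broadly expressed genes lie in CpG islands, stretches rich in G, C and the CG dinucleotide. The cyclic AMP response element (CRE), the letters TGACGTCA, is bound by CREB and ATF proteins, and the TRE, the letters TGANTCA, by AP-1, the dimer of JUN and FOS proteins.

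The sequences that follow were read from the RefSeq GRCm38.p6 genome, whose coordinates are those of mm10. They are parts without annotated exon of the 300 bp around a peak's midpoint, in lower case, with every TGACGTCA and TGANTCA in capitals. The first set holds promoter peaks in the order of the ZBTB21 peak table. The peak at Bloc1s4 also stood early in that order but left no stretch free of exons. Not all are typical: the Srrd and Hps4 peak had a ratio of observed to expected CG dinucleotides of 0.157, against a median of 0.880 in promoter members.

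Srrd and Hps4 promoters, mm10 chr5:112342505-112342624, plus strand: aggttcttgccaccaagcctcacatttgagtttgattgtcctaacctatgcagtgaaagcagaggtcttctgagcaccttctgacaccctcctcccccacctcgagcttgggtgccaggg
Pskh1 promoter, mm10 chr8:105900707-105900826, plus strand: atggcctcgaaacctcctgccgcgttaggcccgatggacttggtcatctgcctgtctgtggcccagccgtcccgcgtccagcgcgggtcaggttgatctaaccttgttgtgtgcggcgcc
Slc35e1 promoter, mm10 chr8:72492615-72492695, plus strand: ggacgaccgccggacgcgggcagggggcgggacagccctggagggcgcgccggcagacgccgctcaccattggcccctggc

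The second set shows the earliest members in the table that lie more than 10 kb from a TSS, after 1 earlier peak, near Gm31933, whose sequence is not shown. Each is named by the gene of its nearest TSS, which need not be the gene it lies in. The Ncf1 member lies in an intron of Gtf2i.

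Pisd, mm10 chr5:32713454-32713573, plus strand: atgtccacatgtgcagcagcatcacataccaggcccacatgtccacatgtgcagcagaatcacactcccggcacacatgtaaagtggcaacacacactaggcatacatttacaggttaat
Ncf1, mm10 chr5:134266807-134266926, plus strand: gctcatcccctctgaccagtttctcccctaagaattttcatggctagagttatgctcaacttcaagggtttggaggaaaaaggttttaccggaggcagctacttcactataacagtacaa
Csrnp1, mm10 chr9:120001697-120001816, plus strand: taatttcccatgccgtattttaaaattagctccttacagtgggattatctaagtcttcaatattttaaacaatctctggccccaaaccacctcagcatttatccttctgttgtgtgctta

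The next sequence belongs to the member that lay farthest from any ATAC peak, in an intron of Nell2, with copies of a short unit that holds the TRE letters.

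Nell2 intron, mm10 chr15:95276787-95276906, plus strand: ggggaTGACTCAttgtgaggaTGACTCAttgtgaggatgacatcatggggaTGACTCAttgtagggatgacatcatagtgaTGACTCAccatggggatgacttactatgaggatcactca

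The last set shows the CRE in 3 members at promoters and 3 beyond 10 kb, taken in table order among those whose CRE lies whole in a printable stretch free of exons. Earlier promoter members with a CRE, such as those at Map1lc3a and Aasdh, were passed over by this condition, and the set was chosen after the motif counts were seen. Those beyond 10 kb are again named by the gene of the nearest TSS. The Lrtm2, Cmklr1 and Gm13090 members lie in introns of Cacna2d4, Wscd2 and Camta1.

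Heca promoter, mm10 chr10:17948151-17948210, plus strand: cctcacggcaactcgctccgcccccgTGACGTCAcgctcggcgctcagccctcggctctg
Galnt11 promoter, mm10 chr5:25222812-25222871, plus strand: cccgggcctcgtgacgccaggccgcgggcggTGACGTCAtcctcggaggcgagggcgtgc
Tmem198 promoter, mm10 chr1:75479472-75479531, plus strand: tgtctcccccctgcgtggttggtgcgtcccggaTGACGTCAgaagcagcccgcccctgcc
Lrtm2, mm10 chr6:119345231-119345290, plus strand: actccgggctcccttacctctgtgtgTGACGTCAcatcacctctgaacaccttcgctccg
Cmklr1, mm10 chr5:113580913-113580972, plus strand: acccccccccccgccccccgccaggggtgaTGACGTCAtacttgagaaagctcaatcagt
Gm13090, mm10 chr4:151401550-151401609, plus strand: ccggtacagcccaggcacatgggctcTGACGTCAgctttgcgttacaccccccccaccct

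Few of the chosen peaks lay at the edge of a listed ATAC peak. The distance to the nearest ATAC peak, edge to edge, ranged from 3 bp to 211555 bp with a median of 9736 bp (25th percentile 4223 bp, 75th percentile 21548 bp). Only 38 of the 1026 (3.70%) lay within 500 bp of an ATAC peak and 80 (7.80%) within 1 kb, while 502 (48.9%) lay beyond 10 kb and 71 (6.92%) beyond 50 kb. Since the peaks were selected on this measure, the distances are a description. Members at promoters lay farther out than the others, with a median of 12499 bp for the 589 whose midpoint was within 1 kb of a TSS and 6910 bp for the remaining 437.

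**Figure D1:**
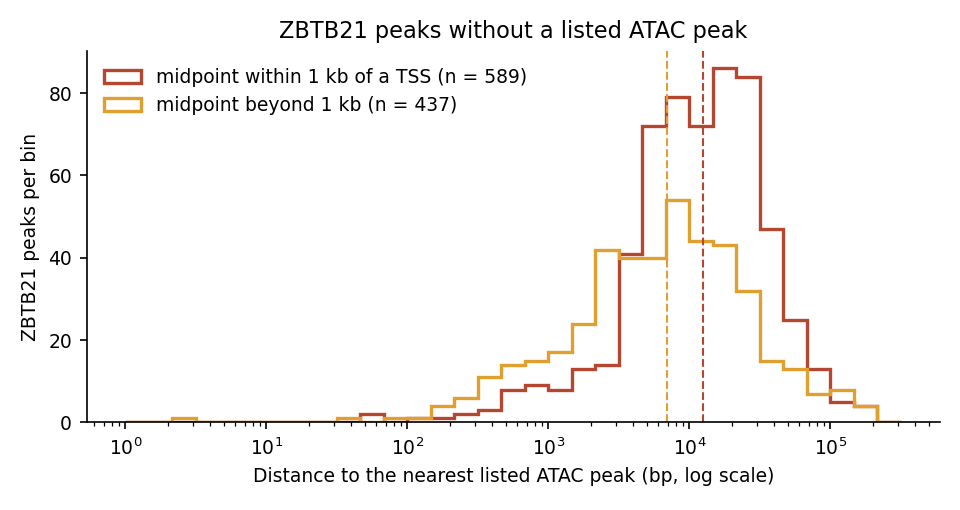
Number of ZBTB21 peaks without a listed ATAC peak per bin of the distance to the nearest ATAC peak (bp, log scale), for the 589 peaks with their midpoint within 1 kb of a TSS and the 437 beyond, with dashed lines at the medians. The medians stand at 12499 and 6910 bp, and only 80 of the 1026 peaks lie within 1 kb of an ATAC peak.

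Just inside the rule stood a peak 3 bp from an ATAC peak, 25648 bp from the TSS of Mphosph6, which encodes an exosome-associated protein. Next came a peak in an intron of Atrnl1, 40 bp away, and the promoter of Npas4, an activity-dependent transcription factor gene, at 47 bp. Just outside stood the peaks that shared least with an ATAC peak, at the Mib2 promoter (117 bp shared), near Gm32141 (143 bp) and at the Defb29 promoter (158 bp). Across the 801 overlapping peaks the median shared length was 606 bp, and the median share of the ZBTB21 peak that was covered was 78.7%. The boundary was thus thinly filled on either side.

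At the other end, the member in the Nell2 intron had no ATAC peak for 211555 bp and no TSS for 127529 bp. Herpud2, whose product sits in the membrane of the endoplasmic reticulum, had its promoter peak 207087 bp from an ATAC peak, with the midpoint 47 bp from the TSS. Smchd1, the gene of an SMC-related protein of the inactive X chromosome, had one 186574 bp away, with the midpoint 332 bp from the TSS. The remaining pair of the farthest 5 lay 197019 bp out, with Gm12724 as the nearest gene, and 182428 bp out, with Cxcl13 as the nearest gene. Of these 5 sites, those at Herpud2 and Smchd1 were GC-rich promoters, with 75.3% and 76.0% G and C in the central 300 bp, and the other 3 had between 39.7% and 45.7%.

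ZBTB21 peaks without a listed ATAC peak were less often at promoters than the overlapping peaks. The midpoint lay within 1 kb of a RefSeq TSS in 589 of 1026 (57.4%, 95% interval 54.4 to 60.4%) against 528 of 801 (65.9%, 62.6 to 69.1%), a difference of -8.51 percentage points with a Newcombe 95% interval of -12.9 to -4.02. In the first 914 rows of the peak table the difference was smaller and its interval held 0 (-4.90 points, -10.6 to 0.982). Peaks are the units of these intervals, not biological replicates, so the intervals cover counting error only. A TSS lay inside 562 of the members (54.8%) and inside 514 of the overlapping peaks (64.2%). More than 10 kb from any TSS were 293 members (28.6%) and 175 overlapping peaks (21.8%), a difference of 6.71 points (2.69 to 10.6).

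Measured as a distance, the midpoint of the members was a median of 294 bp from a TSS, against 187 bp. In 54.9% of all pairs of a member and an overlapping peak the member lay farther out, with a DeLong 95% interval of 52.3 to 57.5% that leaves out 50%. In the first 914 rows the interval held 50% (52.0%, 48.3 to 55.8%). The shift was in how many peaks were near a TSS and was not detectable among peaks of either kind. Among promoter peaks the medians were 103 and 95 bp (51.2% of pairs, 47.8 to 54.5%), and among the others 17374 and 16183 bp (51.4%, 47.1 to 55.8%). By class, the closest peaks, at most 100 bp from a TSS, made up 28.1% of the members and 34.1% of the overlapping peaks (difference -6.01 points, -10.3 to -1.74), and those at 10 to 100 kb made up 25.7% and 20.1% (difference 5.63 points, 1.74 to 9.44).

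**Figure D2:**
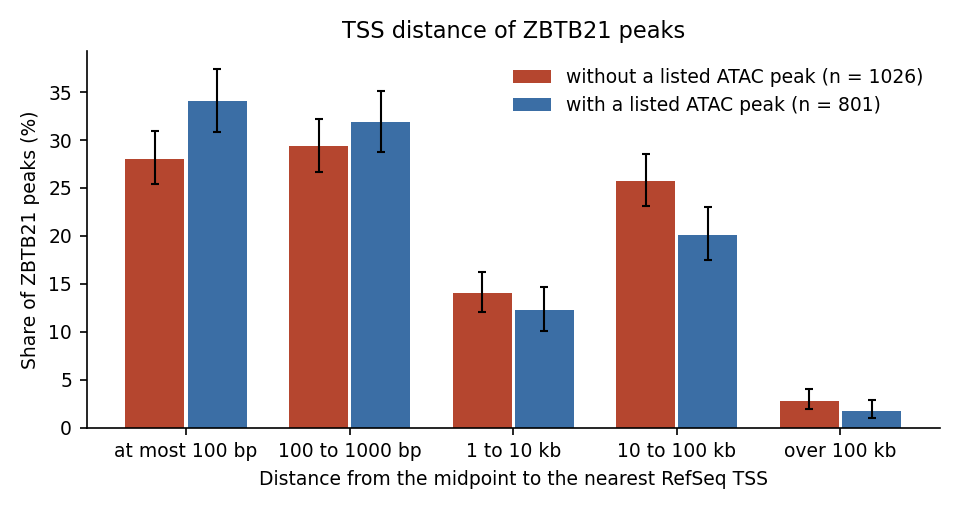
Share of ZBTB21 peaks (%) by distance from the midpoint to the nearest RefSeq TSS, for the 1026 peaks without and the 801 with a listed ATAC peak, with Wilson 95% intervals as error bars. The members' bar is the lower one at distances up to 100 bp (28.1% against 34.1%) and the higher one from 10 to 100 kb (25.7% against 20.1%).

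Away from promoters, 221 of the 437 members (50.6%) were intergenic, 178 (40.7%) intronic and 38 (8.70%) exonic. The overlapping peaks there had 55.7%, 37.4% and 6.96%, and the intervals of all 3 differences held 0. At promoters of protein-coding genes on both strands, the shared start regions of divergent gene pairs, stood 84 members (8.19%) and 84 overlapping peaks (10.5%), a difference of -2.30 points (-5.07 to 0.370). Only 3 members and 7 overlapping peaks touched a tRNA gene. The members were spread over the chromosomes: 101 of the 148 ZBTB21 peaks of chromosome 5 (68.2%, 60.4 to 75.2%) and 74 of the 113 of chromosome 17 (65.5%, 56.3 to 73.6%) lacked a listed ATAC peak, against 48 of 109 on chromosome 9 (44.0%, 35.1 to 53.4%) and 13 of 32 on X (40.6%, 25.5 to 57.7%). They did not come in groups, with 12 of the 1026 within 5 kb of another member and 20 within 5 kb of an overlapping ZBTB21 peak.

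The widths of the 2 kinds of peak did not differ detectably, with medians of 815 and 810 bp (50.9% of pairs, 48.3 to 53.6%). The widest members measured 3286 bp on chromosome 18 (nearest gene Gm31933), 3093 bp at the promoter of Arih1, a ubiquitin ligase gene, 3003 bp in an exon of Prr7, 2889 bp at Mir132 and Mir212, and 2832 bp in an intron of B230217O12Rik. Members were also found all along the peak table, whose median width fell from 1342 bp in the first 457 rows to 579.5 bp in the last 456. What the order of rows stands for is not given in the sources used here. Peaks without a listed ATAC peak made up 53.6%, 58.4%, 56.2% and 56.4% of 4 successive blocks of the rows. The members' promoter share was 80.4%, 59.9%, 46.7% and 43.6% in the same order, and that of the overlapping peaks was 79.7%, 68.9%, 64.0% and 50.3%.

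**Figure D3:**
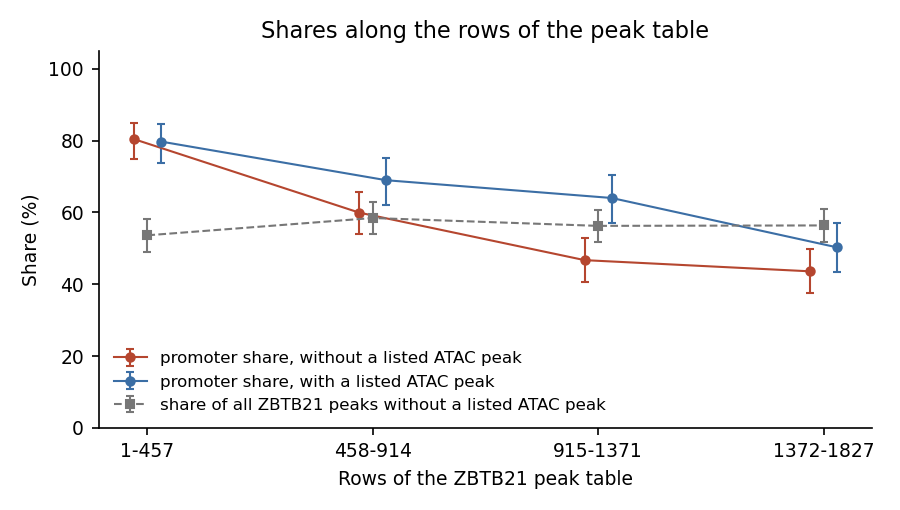
Shares (%) in 4 successive blocks of the rows of the ZBTB21 peak table, with Wilson 95% intervals, for the promoter share of peaks without and with a listed ATAC peak and, in grey, for the share of all ZBTB21 peaks without one. The grey line stays between 53.6% and 58.4%, while the members' promoter share goes from 80.4% in the first block to 43.6% in the last.

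The promoters among the members were richer in G and C than the promoters that an ATAC peak covers, and the sites outside promoters were poorer. In the central 300 bp the median GC content of promoter members was 64.7%, against 60.7% in overlapping promoter peaks, and the member had the higher value in 64.2% of pairs (60.9 to 67.4%). Beyond 1 kb of a TSS the medians were 50.7% and 52.3%, and the member was higher in only 44.2% of pairs (39.9 to 48.5%). Over all peaks these opposite shifts left medians of 59.7% and 57.7% (53.6% of pairs, 51.0 to 56.2%), an interval that held 50% once the whole peak was measured in place of 300 bp (52.3%, 49.7 to 54.9%). In the later rows, after the first 914, the share of pairs was 49.5% (45.8 to 53.2%). The ratio of observed to expected CG dinucleotides had medians of 0.729 and 0.744 over all peaks (46.9% of pairs, 44.3 to 49.6%). That call was lost in wider peaks (49.0%) and with ATAC peaks within 500 bp counted as shared (48.3%), and in the first 914 rows the value was 50.8% (47.1 to 54.6%). At promoters it was 0.880 and 0.873 (52.9%, 49.5 to 56.3%), and beyond 1 kb 0.334 and 0.366 (44.8%, 40.5 to 49.0%). The share of bases masked as repeats did not differ detectably (50.7% of pairs, 48.2 to 53.2%), and 13 members and 6 overlapping peaks had most of the 300 bp masked.

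Motif letters were searched on both strands in the same 300 bp. The TRE, TGANTCA, and the CRE, TGACGTCA, were joined by the CCAAT box, CCAAT, bound by NF-Y, the GC box, GGGCGG, bound by SP and KLF proteins, the ETS letters CCGGAAG, the E-box CACGTG, the YY1 letters AANATGGC, the NRF1 letters GCATGCGC, the B box of tRNA genes, GTTCGANNC, and the ZNF143 and CTCF motifs. No motif's letters contain those of another, though matches may share end bases. A match is a description of the sequence and not a bound site.

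The CRE was the motif that stood out most from the background in the members, and its share did not differ detectably from that of the overlapping peaks. It was found in 215 of the 1026 (21.0%, 95% interval 18.6 to 23.6%) and in 153 of the 801 (19.1%, 16.5 to 21.97%), a difference of 1.85 points whose interval, -1.87 to 5.51, holds 0. With only ATAC peaks above the median score counted, the difference was 4.002 points, with an interval of 0.0133 to 7.73. By comparison, 1.79% of 32817 RefSeq promoters of the same length and 0.676% of 41000 ATAC peak centres held these letters. Members had it at promoters and away from them alike, in 125 of 589 (21.2%) and in 90 of 437 (20.6%). Among the last 456 rows, 14.8% of the members held it, against 23.3% among the first 457. Its distance from the midpoint, bounded by the 300 bp searched, had a median of 53 bp, with 106 of 215 (49.3%) within 50 bp. In the overlapping peaks the median was 62 bp, with 66 of 153 (43.1%) within 50 bp. With the search bounded in this way, closeness to the midpoint is no finding. At promoters 82 of the 125 (65.6%) had it upstream of the TSS, as against 75 of 97 (77.3%) in the overlapping peaks. The median position was -18 bp over all 125 and -33 bp over all 97. The Heca, Galnt11 and Tmem198 stretches printed above lie 118, 92 and 23 bp from the TSS by their peaks' midpoints, and the Lrtm2, Cmklr1 and Gm13090 stretches 14593, 62780 and 312089 bp.

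TRE letters were in 73 members (7.12%) and 57 overlapping peaks (7.12%), beside 7.81% of RefSeq promoters and 11.3% of ATAC peaks. Members at promoters had them in 4.24% (2.89 to 6.19%) and members beyond 1 kb in 10.98% (8.39 to 14.3%), beside 4.36% and 12.5% of the overlapping peaks. The member in the Nell2 intron stood apart, with 9 matches in its 300 bp and no CRE, the highest number in any member. Only 2 of the 1026 members held 3 or more TRE matches and none of the 801 overlapping peaks did, where the highest number was 2.

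CCAAT boxes were less frequent in the members, and this was the only one of the 11 motifs whose difference stayed clear of 0 with the interval widened for 11 motifs. The letters were in 254 of 1026 (24.8%, 22.2 to 27.5%) and in 302 of 801 (37.7%, 34.4 to 41.1%), beside 37.4% of RefSeq promoters and 33.1% of ATAC peaks. The difference was -12.9 points (-17.2 to -8.67, and -19.1 to -6.76 widened). It was -12.7 points at promoters (24.8% against 37.5%) and -13.4 points beyond 1 kb (24.7% against 38.1%). Among promoter peaks below 59.7% GC the members had 33.8% and the overlapping peaks 46.5% (difference -12.6 points, -22.5 to -2.08). From there to 66.3% GC they had 23.5% and 38.6% (-15.1 points, -24.3 to -5.73), and above that 21.0% and 21.3% (-0.336 points, -9.26 to 7.87). Peaks beyond 1 kb were not split by GC content, and whether GC content accounts for the difference was not tested. YY1 letters were in 5.56% of the members and 8.86% of the overlapping peaks (-3.31 points, -5.81 to -0.934) and GC boxes in 43.2% and 47.9% (-4.76 points, -9.34 to -0.164), both differences with a widened interval that held 0. For the ETS, E-box, NRF1, B box, ZNF143 and CTCF motifs the interval of the difference held 0 without widening. CTCF, the zinc finger protein of loop anchors, had its motif in 4 members (0.390%) and 5 overlapping peaks (0.624%). The same motif was in 0.558% of RefSeq promoters and 4.78% of the ATAC peaks.

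**Figure D4:**
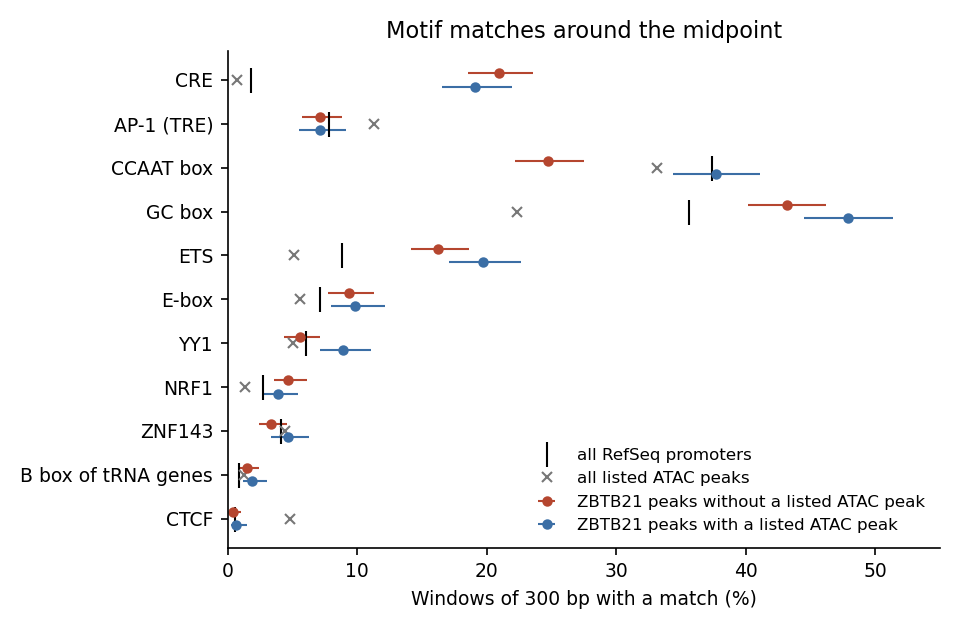
Share of 300-bp windows (%) with at least 1 match to each motif in the 1026 ZBTB21 peaks without and the 801 with a listed ATAC peak (points with Wilson 95% intervals), in all RefSeq promoters (vertical ticks) and in all listed ATAC peaks (crosses). The CRE lies at 21.0% and 19.1% in the ZBTB21 peaks and below 2% in both backgrounds, and the CCAAT box at 24.8% and 37.7%.

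The promoters of 728 genes were occupied by a member, 660 of them protein-coding, 60 lncRNA genes, 5 miRNA genes and 3 other non-coding genes. Thus 3.14% of the 21000 protein-coding genes had a ZBTB21 peak without a listed ATAC peak at the promoter. Overlapping peaks were at 608 protein-coding genes, and 5 genes had one of each (Rnf44, Spag9, Sphk2, Srsf11 and Zdbf2). Of the 655 genes with a member only, 619 had no ATAC peak within 1 kb of any TSS and 36 had one at another TSS or beside the ZBTB21 peak.

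The ATAC list placed a peak within 1 kb of a TSS of 28.5% of all protein-coding genes and 51.0% of the 1263 genes with a ZBTB21 peak at the promoter. Among the 85 genes listed as cytosolic ribosomal proteins, 44 (51.8%) had one. Why the remaining genes had none was not tested. Most member promoters were CpG-rich: of the 539 genes with an entry in the RefSeq promoter table, 492 (91.3%) had an observed to expected CG ratio of 0.6 or more. So did 458 of 512 genes of overlapping peaks (89.5%), and 52.3% of all 16853 protein-coding genes in the table. Of the 8821 protein-coding genes with such promoters 38.5% had a listed ATAC peak. Where the ratio was 1 or more, 41.8% of the 244 genes with a ZBTB21 peak had one (35.8 to 48.1%), against 54.8% of 476 genes (50.3 to 59.2%) at a ratio of 0.8 to 1. For all protein-coding genes the share was also lower in the top class, 34.5% (32.2 to 36.9%) against 38.7% (37.2 to 40.3%). Markers of mESCs had a listed peak at 4 of 10 genes (Pou5f1, Nanog, Zfp42 and Dppa5a), while Sox2, Klf4 and Esrrb were among those without one, and markers of fibroblasts, the feeder cells, at 2 of 8 (Thy1 and Pdgfrb). Neither a member nor an overlapping ZBTB21 peak lay at any of these 18 marker promoters. With a member at 3.14% of all protein-coding genes, none among 18 is near the general share. Whether feeder cells contributed to the list was not tested.

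**Figure D5:**
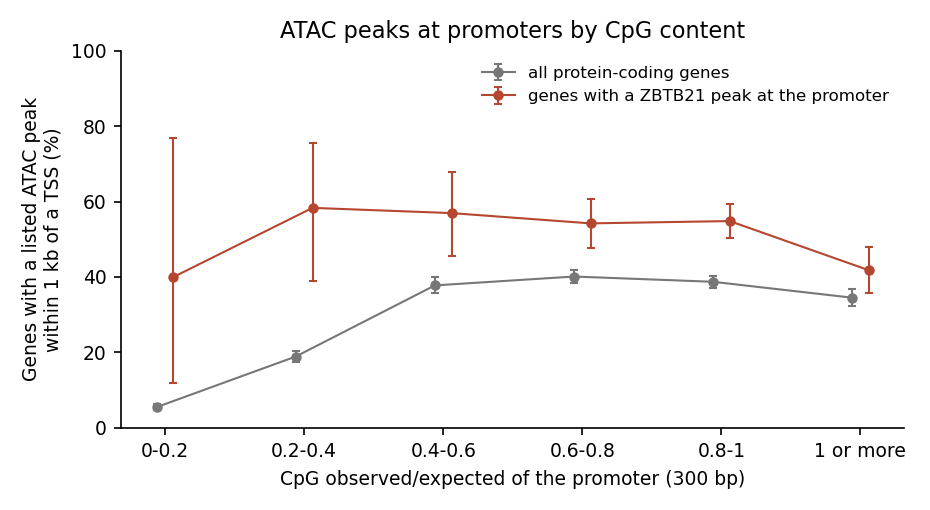
Share of protein-coding genes (%) with a listed ATAC peak within 1 kb of a TSS, by the CpG observed/expected ratio of the promoter, for all genes and for genes with a ZBTB21 peak at the promoter, with Wilson 95% intervals. The share falls in the most CpG-rich class, to 41.8% from 54.8% in the class below it for genes with a ZBTB21 peak. For all genes it falls to 34.5% from 38.7%.

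The first 20 promoter members of the table served many cell functions. Among the genes of RNA polymerase II control were Ccnt1 (cyclin T1, the partner of the elongation kinase CDK9), Larp7 (a protein of the 7SK particle that holds this kinase in check), Ssu72 (a phosphatase of the polymerase's tail) and Cdk11b (a cyclin-dependent kinase), whose peaks lay 11489, 21817, 6845 and 8221 bp from the nearest ATAC peak. Larp7 and Zgrf1 share their peak, as do Cdk11b and Gm16023, and Hps4 and Srrd. Lysosome and vesicle genes included Hps4 and Bloc1s4, whose products work in the making of lysosome-related organelles (5302 and 23145 bp), Vps37b of the ESCRT-I complex (10477 bp), Map1lc3a, the autophagy protein LC3A (37992 bp), and Rheb, the GTPase that activates mTORC1 (19118 bp). Esyt2, which tethers the endoplasmic reticulum to the plasma membrane, had the longest distance of the 20, 76954 bp, with the midpoint 5 bp from the TSS. At Usp38, a deubiquitinase gene, the midpoint was 1 bp from the TSS and the nearest ATAC peak 27523 bp away.

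The shortest distance of the 20, 528 bp, was that of the peak at Mir132 and Mir212, neighbouring miRNA genes. The others of the 20 were Pskh1 (5955 bp), Slc35e1 (5639 bp), Trmt61b (62993 bp), Ilrun (4317 bp), Tmub2 (16252 bp), Btbd9 (15525 bp), Aasdh (4471 bp) and Plaa (45472 bp). Of the 20 peaks, those at Map1lc3a and Aasdh held a CRE in the central 300 bp.

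Genes of RNA handling were among the lists examined. Splicing factors had 11 of 95 genes with a member (11.6%) and 10 with an overlapping peak, and included Prpf6 and Prpf31 (proteins of the U4/U6.U5 snRNP), Hnrnpa2b1 and Snrpg, whose peaks lay 31672, 6720, 8150 and 26609 bp from an ATAC peak. DEAD- and DExH-box helicases had 7 of 56 (12.5%) and 4, and translation factors had 6 of 60 and 4. Among the former, Ddx51 and Ddx28 held a CRE in their peaks, 28 and 140 bp from the TSS by midpoint. Among the latter were Eif2b1, Eif1, Eif5a and Etf1, the release factor of translation termination, with gaps of 18630, 11243, 774 and 40703 bp. Over all protein-coding genes the shares were 3.14% with a member and 2.90% with an overlapping peak, so both kinds were more frequent in these lists, as were listed ATAC peaks (41.7 to 57.1% of the genes).

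Cytosolic ribosomal protein genes had 8 of 85 with a member (9.41%) and 10 with an overlapping peak (11.8%). Among those with a member were Rpl9, Rps14, Rps29 and Fau. At Rps29 the midpoint lay 8 bp from the TSS, with a CRE and a CCAAT box and no ATAC peak for 19240 bp, and at Rps14 the nearest ATAC peak was 925 bp away. Fau and Mrpl49 share 1 member with a CRE, 8626 bp from an ATAC peak. Mitochondrial ribosomal proteins had 4 of 78 genes (5.13%) with each kind of peak. The shares over all protein-coding genes were 3.14% with a member and 2.90% with an overlapping peak. Listed ATAC peaks were at 51.8% of the cytosolic and 51.3% of the mitochondrial genes, against 28.5% of all protein-coding genes.

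Among the remaining lists, some of housekeeping genes had fewer genes with a member than with an overlapping peak. These were the proteasome with 1 (Psmd5) and 5 of 48 genes, the respiratory chain and ATP synthase with 6 and 11 of 97, aminoacyl-tRNA synthetases with 2 (Sars and Wars2) and 5 of 37, RNA polymerases and Mediator with 1 (Med31) and 3 of 58, and replication-dependent histones with 1 (H2bc6) and 5 of 63. Over all protein-coding genes the shares were 3.14% with a member and 2.90% with an overlapping peak. The share with a member was 2.08% for the proteasome, 1.72% for RNA polymerases and Mediator and 1.59% for histones. It was 6.19% for the respiratory chain and ATP synthase and 5.41% for the synthetases. These counts are small and the difference between the kinds of peak was not tested within a list. Genes named Zfp or Zscan, many of them zinc finger repressors, had 18 and 23 of 422.

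The ZBTB family had 4 genes with a member (Zbtb21, Zbtb11, Bcl6 and Bcl6b) and 1 with an overlapping peak (Hic1), of 46. Zbtb21 itself was among them: its peak, 1894 bp wide at chr16:97961413-97963306, had its midpoint 262 bp from the TSS and lay 33192 bp from the nearest ATAC peak, a gene singled out after its values were seen. Zbtb11 held both a CRE and a CCAAT box, 6459 bp from an ATAC peak. Ctcf was the member among 15 genes of cohesin and CTCF, at 12015 bp, and Cdca5, which encodes sororin, the stabilizer of cohesin, had an overlapping peak. None of 22 pluripotency factors had a member, 1, Stat3, had an overlapping peak, and 10 had a listed ATAC peak. Over all protein-coding genes the shares were 3.14% with a member and 2.90% with an overlapping peak. In lists this short, a count of 0 or 1 is near these shares.

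Of 10 loci that the study displays, 6 had a ZBTB21 peak at the promoter. Chd9, a chromatin remodeller gene, was the 1 without a listed ATAC peak, with the midpoint 514 bp from its TSS and 11208 bp to the nearest ATAC peak. Man1b1, Mmab, Znrd1, Lsm4 and Rap2a had peaks of 1147 to 2780 bp that shared 735 to 1073 bp with an ATAC peak. Sall1, Ncor1, Pigl and Lrrc75a had no ZBTB21 peak at the promoter and no ATAC peak there either, the nearest ATAC peak lying 7437 to 13999 bp from their TSSs. The study reports ZBTB21 binding in the regions of these genes. Only peaks with their midpoint within 1 kb of a TSS were counted here, so binding elsewhere in the regions was not examined. The Aih1 locus, also displayed, was not analysed here, since the RefSeq annotation used has no gene of that symbol.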

How the data were processed

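ATAC-seq of untreated mESCs was analysed from 1 deposited list that pools 2 samples. Each line, as the authors deposited it, gives mm10 coordinates and a score, a whole number from 540 to 953. The score was used only to filter the list at its median, 696. How the ATAC-seq peaks were called is not given in the sources used here. The lowest score, 540, equals the score of the IDR software at an IDR of 0.05, but whether the list was filtered in that way is not stated. The submitters' processing notes name cutadapt 2.6, Bowtie2 2.3.5.1, MACS2 2.1.1 and the builds mm10 and hg19, without roles. If cut sites were not shifted for Tn5, peak edges would move by a few bases. Whether sites were shifted is not given in the sources used here. The list holds no read counts, so the depth of each sample is unknown and no spread between the samples can be given.

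ZBTB21 peaks were the coordinates of the 1827 mESC peaks in a supplementary table of the study, which describes MACS2, an IDR limit of 0.05 over replicates and a blacklist filter for ChIP-seq. From these, overlaps, distances to 31603 RefSeq TSSs (GRCm38.p6), base composition, repeats in lower case in the genome file and motif matches were computed with Python 3.11.15, numpy 2.4.6 and scipy 1.17.1. A promoter is within 1 kb of a TSS by the peak's midpoint. The nearest gene of a peak is the gene of the TSS nearest to its midpoint. Shares have Wilson 95% intervals and their differences Newcombe intervals, and distributions were compared by the share of pairs with DeLong intervals. A difference was called where the interval left out 0 (or 50%). The code was tested on simulated data. Permutation over peaks was not used.

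The members and gene lists were chosen with earlier results of these data known, and the lists were trimmed after values were seen of genes whose symbols matched without belonging (such as Eef1akmt and Ndufaf genes). Named genes were those at the first 20 promoter members, the 5 farthest and 5 widest members, 3 on each side of the overlap rule, up to 4 per gene list and 10 loci the study displays.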

Additional observations from a re-analysis of the deposited data

How the results depend on the processing

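No paired analysis was possible because 1 list pools both samples, and for the same reason no replicate could be left out. Of 93 values under alternatives for 10 results, 76 were counted as unchanged. For a count this meant staying within 1.5 times. The others kept their direction and call, or changed direction with neither interval clear of no difference. Such turns were seen for the repeat share (49.6% with ATAC peaks within 500 bp counted as shared) and the CRE difference (-0.954 points in later rows). The CCAAT difference kept its direction and its call under all 11 of its alternatives, from -16.0 to -9.91 points. Alternatives for the motifs, and those for composition beyond 1 kb and repeats at promoters, were added after seeing the data.

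Counts of members went from 1026 to 510 among narrower and 516 among wider ZBTB21 peaks, and to 512 and 514 in the earlier and later rows, where fewer peaks were compared. With only ATAC peaks above the median score, 1263 of the 1827 ZBTB21 peaks (69.1%) were members, against 56.2% with the full list. That count was within 1.5 times and so counted as unchanged, but its share lies outside the interval of 53.9 to 58.4%. In the earlier rows the promoter difference was -4.90 points and the share of pairs for TSS distance 52.0%, neither clear of no difference, and the latter was 51.4% beyond 1 kb. For GC content it was 50.9% in narrower peaks and 52.3% over whole peaks, and turned to 49.5% in later rows and 44.2% beyond 1 kb. For the CpG ratio it was 48.3% with ATAC peaks within 500 bp counted as shared, 49.0% in wider peaks, and turned to 50.8% in earlier rows and 52.9% at promoters. With the stricter list, of ATAC peaks above the median score, the repeat share (53.4%) and the CRE difference (4.002 points) became clear of no difference. The causes were not tested. With no depth known, a site below the list's threshold cannot be told apart from a site without accessibility.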

Other observations

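Peaks with 2 or more CRE matches in the central 300 bp numbered 15 of 1026 without a listed ATAC peak and 4 of 801 with one. The highest number in a member was 4, in a peak at none of the named genes. A CRE or a TRE was found in 275 members (26.8%) and 198 overlapping peaks (24.7%), with a difference of 2.08 points (95% interval -1.98 to 6.08). Beyond 1 kb of a TSS the shares were 29.5% of 437 members and 30.04% of 273 overlapping peaks. The ATAC peaks overlapped by a ZBTB21 peak had a median score of 772, and the ATAC peak nearest to a member had a median of 703.5.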
